A study of Mus musculus with 8 samples.

Results

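Tubulin is the building block of the microtubule, and 10 mouse genes for it are described here out of the 54532 genes in the expression table. They were taken by gene symbol. The 5 alpha-tubulin genes were Tuba3a and Tuba3b, known as the testis alpha-tubulins, and Tuba1a, Tuba1b and Tuba1c, which many tissues use. The 5 beta-tubulin genes were Tubb2a, Tubb2b, Tubb3, Tubb4b and Tubb5. Each alpha chain pairs with a beta chain, and the pairs join end to end into the wall of a hollow tube that grows and shrinks at its ends. In the testis, microtubules form the spindles of dividing germ cells, carry the pulling force that moves chromosome ends along the nuclear envelope in meiotic prophase, fill the long processes of Sertoli cells, and later build the manchette and the tail axoneme of the spermatid.

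RNA was sequenced from whole testes of 4 control mice (Sync-Spdya fl/fl) and 4 conditional knockout mice (Sync-Spdya cKO, genotype Spdya fl/fl;Ddx4-CreERT2), with 1 library per juvenile male and littermates as controls on a C57BL/6J background. In every mouse of both groups spermatogenesis had been synchronized by a block of retinoic acid (RA) synthesis followed by RA, and the labels give tamoxifen at RA7.5 and RA8.5 and collection at RA11.5, where the number is days after RA and RA11.5 stands for mid-late pachytene. The study's text places the tamoxifen injections slightly earlier than the labels do. Ddx4-CreERT2 acts in germ cells after tamoxifen and removes exon 2 of Spdya, a cyclin-like partner of CDK2 at telomeres, so the somatic cells of the testis kept the gene. The controls carried the floxed alleles and received tamoxifen, but no Cre. The study asked whether the sex chromosomes stay silent when Spdya is lost, and none of the 10 tubulin genes lies on a sex chromosome. Expression is given as FPKM, fragments divided by the gene's length and by a size of the library. That size was not the plain total of fragments on genes. It ran from 0.938 times the total in control replicate 1 to 1.05 times in control replicate 4. Levels of different genes can be set beside each other only as far as that length fits the transcripts made. The deposited length was 3327 bases for Tubb5 and 2088 for Tubb4b, against 2649 and 1598 for the longest coding transcript. The 2 lengths were equal for Tuba3a, Tuba3b, Tuba1a, Tubb2a and Tubb3.

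Libraries held 13978342 to 17867570 fragments on genes in the controls and 15494873 to 19583091 in the cKO. Control replicate 1 stood apart, with 0.464% of fragments on mitochondrial genes against 2.97% to 3.39% in the other controls and 2.20% to 3.74% in the cKO, and values that it moved by over 1.5 times are also given without it. Spdya itself was at 21.3 ± 1.76 FPKM in the controls and 24.1 ± 5.45 FPKM in the cKO (SD, n = 4 each). A gene-level value counts all exons and does not check the loss of exon 2. The labelled tissue and stage were compared with marker genes: summed spermatocyte markers (8 genes, among them Sycp3 and Hspa2) lay between 851 and 1632 FPKM in every library, Sertoli markers between 1486 and 2519 FPKM, and summed spermatid markers (7 genes) between 6.97 and 11.8 FPKM, with Acrv1, Tnp1 and Prm2 under a mean of 0.1 FPKM.

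The coding sequences show which of these genes can be told apart by sequencing, and their ends are printed because the tail of the tubulin chain is where isotypes differ most and where most tubulin-modifying enzymes act. The last 51 coding bases of 7 members, stop codon included, were read from GENCODE vM21 on GRCm38. Capitals mark bases that, after alignment over the whole coding sequence, differ from a reference member or lie opposite a gap in it. The reference was Tuba3a for the Tuba3 genes, Tubb2a for the Tubb2 genes and Tubb4b for Tubb3 and Tubb5.
Tuba3a: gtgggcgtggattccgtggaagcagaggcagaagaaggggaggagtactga
Tuba3b: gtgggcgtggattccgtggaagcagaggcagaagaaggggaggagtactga
Tubb2a: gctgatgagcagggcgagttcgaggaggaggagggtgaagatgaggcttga
Tubb2b: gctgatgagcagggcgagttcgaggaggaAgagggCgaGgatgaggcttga
Tubb3: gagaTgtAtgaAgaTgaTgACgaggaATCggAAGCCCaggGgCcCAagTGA
Tubb4b: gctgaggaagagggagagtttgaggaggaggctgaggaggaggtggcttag
Tubb5: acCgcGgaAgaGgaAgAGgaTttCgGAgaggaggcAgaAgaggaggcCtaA
In this stretch Tuba3a and Tuba3b differed at 0 bases and Tubb2b differed from Tubb2a at 3. Tubb3 and Tubb5 held 23 and 15 capitals against Tubb4b, which are not plain counts of substitutions. The coding sequence was 1353 bases in Tubb3, 1338 in Tubb4b and 1335 in Tubb5. The stop codons of Tubb3 and Tubb4b were not aligned with each other, and bases missing from Tubb5 are not counted. Both Tuba3 genes end in tac before the stop codon, a codon for the tyrosine that is cut off and put back in the tyrosination cycle of alpha-tubulin. None of the beta genes does.

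Over the whole coding sequence of 1353 bases, Tuba3a and Tuba3b were 96.97% identical. They differed at 41 positions, all of them the last position of a codon, and 0 encoded residues differed, so both genes encode the same alpha-tubulin chain. The stretch of 90 coding bases with more differences than any other of that length (coding positions 274 to 363, counted from the start codon) is printed with its 11 differing bases in capitals.
Tuba3a: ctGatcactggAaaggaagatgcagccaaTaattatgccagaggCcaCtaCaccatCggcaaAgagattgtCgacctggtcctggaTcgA
Tuba3b: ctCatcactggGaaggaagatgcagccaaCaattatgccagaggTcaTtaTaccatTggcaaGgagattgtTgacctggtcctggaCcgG
The longest run without a difference was 155 bases (coding positions 430 to 584). As reads were 150 bases long, windows of 150 bases along each transcript were compared with the transcripts of all other genes. Only 36 windows were common to Tuba3a and Tuba3b, which is 2.65% of the windows of Tuba3a and 2.21% of those of Tuba3b, so nearly all of their fragments can be placed by sequence even though their proteins cannot be told apart.

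The other groups were less separable. Tuba1a shared 54.7% of its windows with another gene, Tuba1b 57.9% and Tuba1c 46.7%. Tuba1b and Tuba1c had 649 windows in common, Tuba1a and Tuba1c 444, and Tuba1a and Tuba1b 279. Others were shared with pseudogenes and with the readthrough gene Gm49450, which spans Tuba1a and Tuba1b on the same strand and itself read between 0.0849 and 0.792 FPKM. Tubb2a shared 27.9% and Tubb2b 20.1%, nearly all with each other. Tubb4b shared 16.8% with the pseudogene Tubb4b-ps1, which read 4.97 to 8.34 FPKM, while Tubb3 and Tubb5 shared none. How the counting treated fragments that fit several genes is not given in the sources used here, so the split within Tuba1 and within Tubb2 is uncertain, as are the values of the Tubb4b pseudogene.

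**Figure D1:**
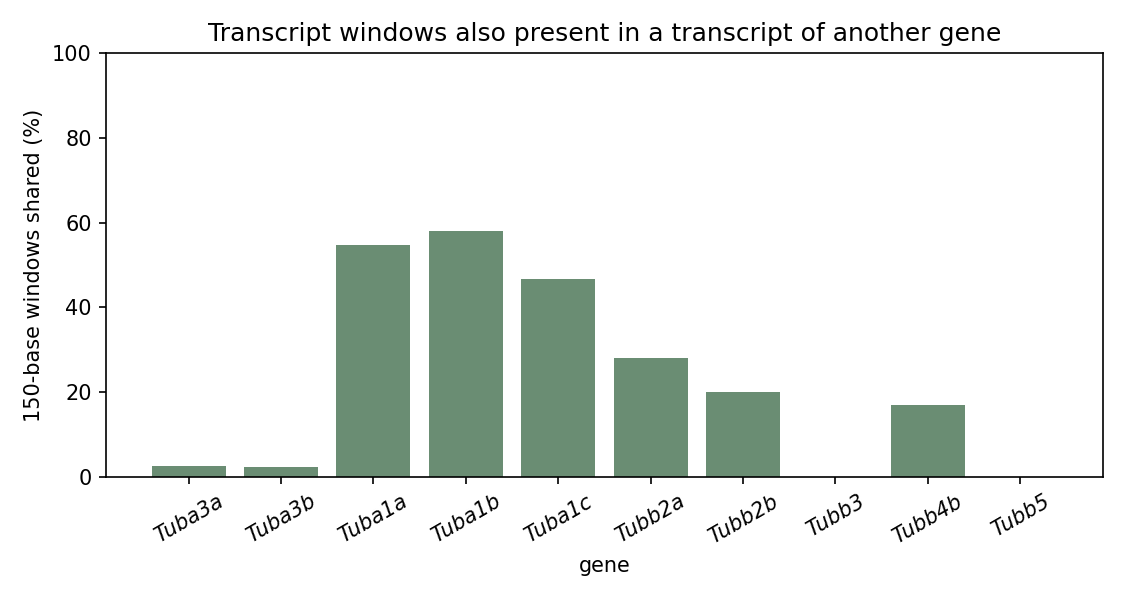
Share of 150-base transcript windows (y axis, percent) that occur unchanged in a transcript of another gene, for each of the 10 genes (x axis). Tuba1a, Tuba1b and Tuba1c share 46.7% to 57.9% of windows, the Tuba3 genes 2.21% and 2.65%, and Tubb3 and Tubb5 none.

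All members but Tubb2b are within the protein-coding genes tested. Tuba3a (ENSMUSG00000067702, minus strand, chr6:125278274-125286042) and Tuba3b (ENSMUSG00000067338, plus strand, chr6:145615757-145621479) lie on one chromosome but are not neighbours, each with 5 exons. Tuba1a (minus, chr15:98949837-98953703), Tuba1b (minus, chr15:98931425-98934565) and Tuba1c (plus, chr15:99029891-99038110) form a cluster. Tubb2a (minus, chr13:34074274-34078007) and Tubb2b (minus, chr13:34126748-34130466) are neighbours. Tubb3 (plus, chr8:123411424-123422015), Tubb4b (minus, chr2:25222160-25224702) and Tubb5 (minus, chr17:35833921-35838306) stand alone. Opposite-strand genes overlap Tuba3a (4930417O13Rik, 0.185 to 0.755 FPKM), Tuba1b (Gm41396, 0.618 to 1.43 FPKM) and Tubb4b (Fam166a, 0.275 to 0.612 FPKM), all far below their partners. Gm20388, which overlaps Tubb3 on its own strand, is listed at 0 in all libraries.

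The Tuba3 promoters were alike in the placing of a CCAAT pair but not in every motif searched. In RefSeq promoter windows (GRCm38.p6, 250 bases before to 50 after the start), both held a pair of CCAAT motifs with 38 bases from the first to the second, and Tuba3a held one more. The 5 sites with 10 bases on either side follow, motif in capitals, numbered from the 5′ end.
Tuba3a first: aaagccacatCCAATcagaaagtgc
Tuba3a second: tgagccacatCCAATcattagtggg
Tuba3a last: gcgctctgggCCAATgagccccggc
Tuba3b first: aaatttacatCCAATcagaaagtac
Tuba3b second: tgagccacatCCAATcgcaaaaagg
The sites began at -102, -64 and -13 from the RefSeq start in Tuba3a and at -89 and -51 in Tuba3b. CCAAT, searched on both strands, occurred in 37.41% of 32851 RefSeq promoters, so its presence alone is common. GENCODE starts Tuba3b 206 bases upstream of the RefSeq start and Tuba3a 39 bases downstream of it, so whether the Tuba3b pair lies before or inside the transcript depends on the annotation.

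The testis alpha-tubulins were by far the most abundant members. Tuba3b averaged 781 FPKM over the 8 libraries and Tuba3a 764 FPKM, which placed them at ranks 4 and 5 of 22033 nuclear protein-coding genes. Tubb4b, the beta-tubulin of cilia and flagella, followed at 299 FPKM (rank 35). Then came Tuba1a (67.1 FPKM, rank 518), Tubb5 (61.0 FPKM, rank 612), Tuba1b (59.7 FPKM, rank 633), Tubb3 (44.6 FPKM, rank 1024), Tuba1c (18.3 FPKM, rank 3432), Tubb2a (2.31 FPKM) and Tubb2b (0.878 FPKM).

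Of the 9 pairs of neighbours in this order, 6 differed in the same direction in 8 of 8 libraries (exact two-sided sign-flip permutation test within libraries, p = 0.0078125, the smallest that 8 libraries can give, adjusted p = 0.0117). The exceptions were Tuba3b and Tuba3a (adjusted p = 0.141, exact test), Tuba1a and Tubb5 (adjusted p = 0.10, exact test) and Tubb5 and Tuba1b (adjusted p = 0.781, exact test). Levels of these pairs were not separated beyond their spread. The order was taken from these same values, so the direction of each step was set before the test. The test covers only the spread over libraries. It cannot see a bias from gene length or shared fragments that repeats in every library. The steps on the log2 scale were 1.36 from Tuba3a to Tubb4b, 2.18 from Tubb4b to Tuba1a, 0.43 from Tuba1b to Tubb3, 1.27 from Tubb3 to Tuba1c, 2.97 from Tuba1c to Tubb2a and 1.33 from Tubb2a to Tubb2b.

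**Figure D2:**
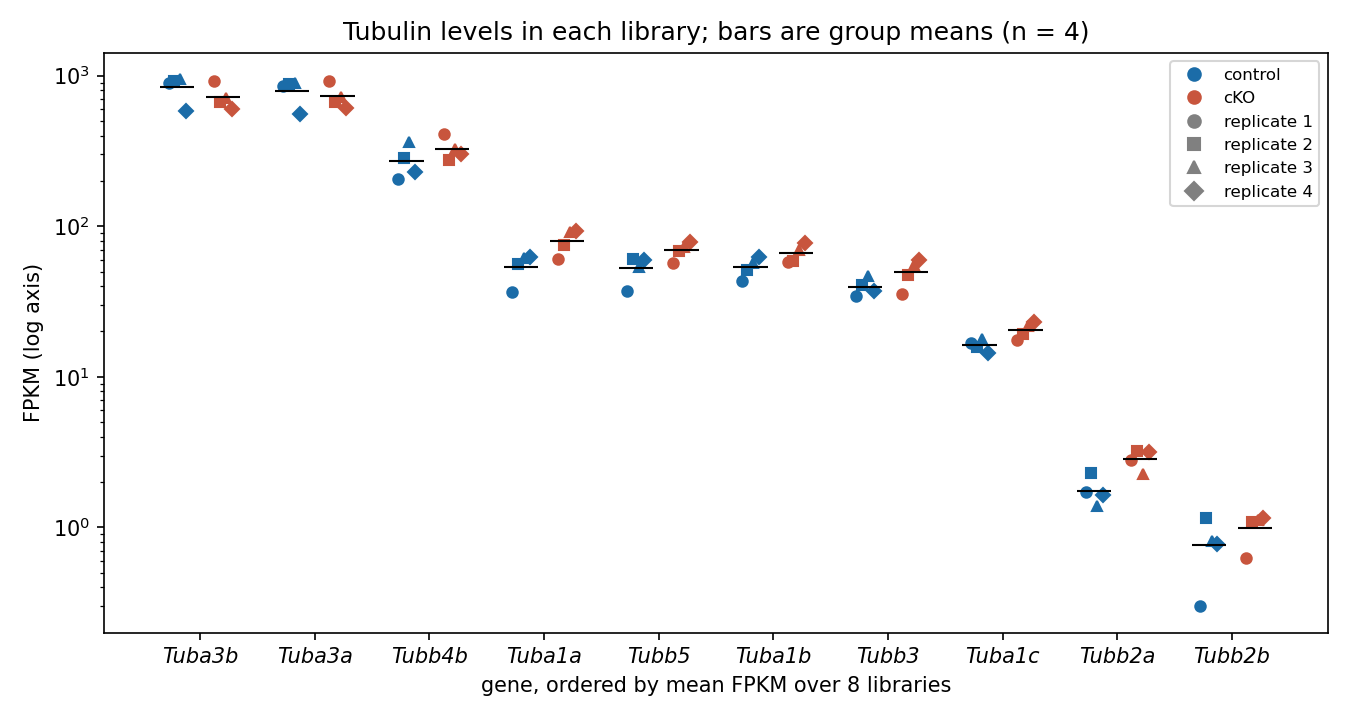
FPKM of each gene (log y axis) in the 4 control libraries (blue) and the 4 cKO libraries (red), ordered by mean over 8 libraries, with marker shape for the replicate and a bar at each group's mean. Tuba3b and Tuba3a lie between 556 and 945 FPKM and Tubb2b at or under 1.16 FPKM, and in every gene the groups overlap.

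Between control and cKO testes, none of the 10 tubulin genes changed at the threshold. Of the 9 genes that passed the expression filter (mean above 1 FPKM in both groups), 0 reached an adjusted p below 0.05 by limma, where 0.0165% of the 12141 genes tested did. At an unadjusted p below 0.05 there were 4 with a higher mean in the cKO (Tubb2a, Tuba1a, Tuba1c and Tubb5) and 0 with a lower mean. Among all genes tested 5.89% were higher and 5% lower at that level. The log2 fold change was above 0 in 7 of the 9, where 52% of all genes lay above 0, and the median was 0.31 against 0.01 over all genes. In 0 of the members were the groups fully separated, where 6.24% of all genes tested had groups without overlap, 3.64% with the cKO higher and 2.59% with it lower. The members' values are not independent of one another, since they come from the same 8 libraries and some share sequence.

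Tuba3a and Tuba3b were the members with a lower mean in the cKO. Tuba3b read 897, 922, 945 and 578 FPKM in control replicates 1 to 4 and 922, 668, 709 and 603 FPKM in cKO replicates 1 to 4. Tuba3a read 854, 875, 894 and 556 FPKM in the controls and 928, 664, 726 and 611 FPKM in the cKO. Control replicate 4 was low and cKO replicate 1 was high for both genes, so the groups overlapped across most of their range.

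The mean of Tuba3b was 836 ± 173 FPKM in the controls and 726 ± 138 FPKM in the cKO (SD, n = 4 each). The log2 fold change was -0.19 (SE 0.23, limma adjusted p = 0.814). That of Tuba3a was 795 ± 160 and 732 ± 138 FPKM, a log2 fold change of -0.11 (SE 0.23, limma adjusted p = 0.897). Because the products are the same protein, the genes were also summed. The sum was 1751, 1797, 1840 and 1134 FPKM in the controls and 1850, 1333, 1435 and 1214 FPKM in the cKO, with a difference of -0.15 on the log2 scale (exact two-sided permutation test, p = 0.486). Without control replicate 4 the difference was -0.32 (exact p = 0.143) and without cKO replicate 4 it was -0.07. Across the fits that omit 1 library, the log2 fold change ranged from -0.36 to -0.11 for Tuba3b and from -0.27 to -0.03 for Tuba3a (-0.07 without control replicate 1).

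The balance between the Tuba3 genes was far steadier than their level. The ratio of Tuba3b to Tuba3a FPKM was 1.05, 1.05, 1.06 and 1.04 in the controls and 0.994, 1.01, 0.977 and 0.987 in the cKO. The groups did not overlap: every control library held more Tuba3b relative to Tuba3a than any cKO library, including control replicate 4 and cKO replicate 1, in which the level itself stood apart. The mean ratio was 1.05 ± 0.00754 against 0.991 ± 0.0123 (SD, n = 4 each), a difference of -0.08 on the log2 scale. Each library had 13752 to 27144 fragments on Tuba3a and 16818 to 31729 on Tuba3b. The 95% Wilson interval of the share of Tuba3b among these fragments, carried over to the ratio, ran from 1.02 to 1.06 for the lowest control and from 0.985 to 1.03 for the highest cKO library, so single libraries were not all separated by counting error alone, which is the only error these intervals cover.

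This ratio was chosen after the values had been seen. It was 1 of 5 ratios of members over 95% identical in coding sequence, and the exact two-sided permutation test gave p = 0.0286, the smallest that 4 libraries against 4 allow, and 0.143 after adjustment over the 5 ratios. It therefore did not pass the correction. Leaving out each library in turn gave differences from -0.09 to -0.08. For Tuba1b over Tuba1a the ratio was 1.01 ± 0.122 in the controls and 0.833 ± 0.0928 in the cKO (exact p = 0.0857, adjusted p = 0.214), and for Tuba1c over Tuba1a, Tuba1c over Tuba1b and Tubb2b over Tubb2a the exact p was 0.371, 0.886 and 0.60. In these 4 ratios the groups overlapped.

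**Figure D3:**
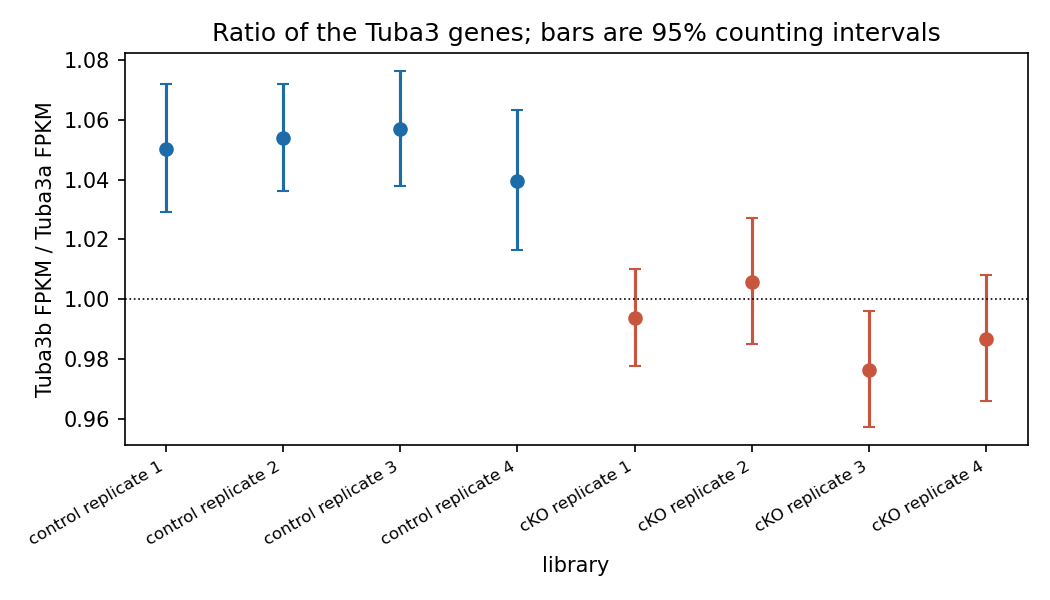
Tuba3b FPKM divided by Tuba3a FPKM (y axis, which does not start at 0) in each library (x axis), control in blue and cKO in red, with 95% Wilson counting intervals and a dotted line at equal levels. The control libraries lie between 1.04 and 1.06 and the cKO libraries between 0.977 and 1.01.

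The general alpha-tubulins of the Tuba1 cluster had higher means in the cKO. Tuba1a, mutated in human brain malformations, read 36.5, 55.8, 61.4 and 62.1 FPKM in the controls and 60.2, 75.0, 92.1 and 93.6 FPKM in the cKO. In 3 of 4 cKO libraries it was above the highest control, and the groups met at cKO replicate 1. The means were 53.9 ± 11.96 and 80.2 ± 15.8 FPKM, a log2 fold change of 0.58 (SE 0.20, limma adjusted p = 0.343, exact permutation p = 0.0857).

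Tuba1c read 16.8, 15.8, 17.7 and 14.4 FPKM in the controls and 17.5, 19.3, 21.8 and 23.0 FPKM in the cKO. Again 3 of 4 cKO libraries lay above all controls, and cKO replicate 1 lay just below control replicate 3. The log2 fold change was 0.33 (SE 0.12, limma adjusted p = 0.348, exact permutation p = 0.0571). Tuba1b read 43.1, 51.5, 56.6 and 62.3 FPKM against 58.0, 58.4, 69.7 and 77.9 FPKM, so 2 cKO libraries exceeded the highest control, with a log2 fold change of 0.31 (SE 0.15, limma adjusted p = 0.495). Fragments can be shared among these genes and with the pseudogenes, so the sum of their FPKM is given beside them: it was 96.5, 123, 136 and 139 FPKM in the controls and 136, 153, 184 and 194 FPKM in the cKO. This sum is a description without a test, and it still depends in part on how shared fragments were assigned.

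Among the beta-tubulins, Tubb5, used by most cell types, read 37.3, 60.5, 53.4 and 59.3 FPKM in the controls and 57.0, 68.6, 72.7 and 79.1 FPKM in the cKO. It was above all controls in 3 of 4 cKO libraries, with means of 52.6 ± 10.7 and 69.3 ± 9.30 FPKM and a log2 fold change of 0.41 (SE 0.17, limma adjusted p = 0.432, exact permutation p = 0.0857). Control replicate 1 was the lowest library for Tuba1a, Tuba1b, Tubb3, Tubb4b, Tubb5 and Tubb2b. Without it the log2 fold change was 0.26 for Tubb5 (limma adjusted p = 0.339), 0.40 for Tuba1a (limma adjusted p = 0.245) and 0.35 for Tuba1c (limma adjusted p = 0.208), and Tubb5 no longer had an unadjusted p below 0.05. Tubb5 also missed that level without control replicate 3 or any of cKO replicates 2, 3 and 4, and Tuba1c missed it without cKO replicate 3 or 4.

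Tubb2a, best known from brain, was low in these testes, at 1.71, 2.30, 1.39 and 1.63 FPKM in the controls and 2.82, 3.23, 2.25 and 3.15 FPKM in the cKO. The groups overlapped only in that cKO replicate 3 lay just under control replicate 2. It had the smallest p of the members, with means of 1.76 ± 0.384 and 2.86 ± 0.445 FPKM and a log2 fold change of 0.68 (SE 0.18, limma adjusted p = 0.229, exact permutation p = 0.0571), resting on 35 to 88 fragments per library. Its near-copy Tubb2b read 0.299, 1.15, 0.809 and 0.771 FPKM in the controls and 0.630, 1.09, 1.11 and 1.16 FPKM in the cKO. It was below the expression filter with 9 to 48 fragments per library and was not in the test of all genes.

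Tubb3, known from neurons and also from Sertoli cells, read 34.6, 40.5, 47.0 and 36.9 FPKM in the controls and 35.4, 47.8, 55.2 and 59.6 FPKM in the cKO. It exceeded the controls in 3 cKO libraries and lay low in the range of the controls in cKO replicate 1, with a log2 fold change of 0.30 (SE 0.17, limma adjusted p = 0.579), or 0.45 without cKO replicate 1 (limma adjusted p = 0.256). Tubb4b read 206, 282, 361 and 231 FPKM in the controls and 409, 275, 326 and 301 FPKM in the cKO, a log2 fold change of 0.30 (SE 0.21, limma adjusted p = 0.653). It was 0.18 without control replicate 1, 0.19 without cKO replicate 1 and 0.45 without control replicate 3 (limma adjusted p = 0.674, 0.743 and 0.700). For Tubb4b, as for the Tuba3 genes, cKO replicate 1 was the highest cKO library, whereas it was the lowest cKO library for Tuba1a, Tuba1b, Tuba1c, Tubb3 and Tubb5.

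**Figure D4:**
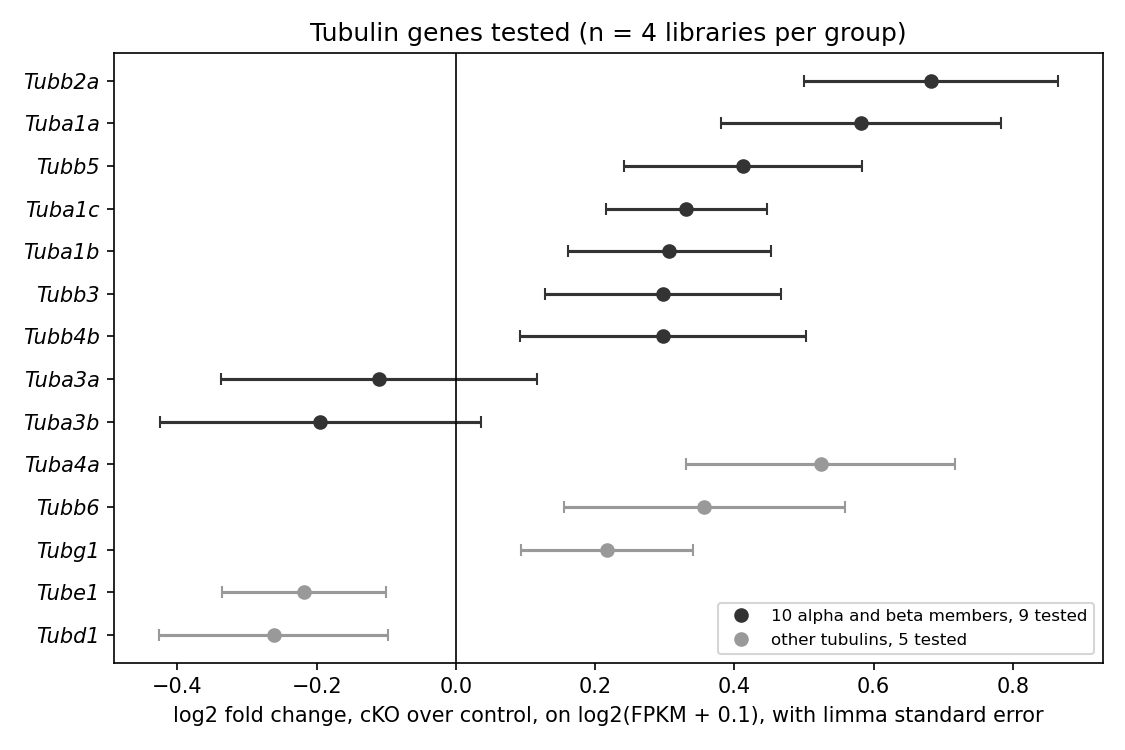
Log2 fold change of cKO over control (x axis, on log2(FPKM + 0.1)) with the limma standard error as bars, for the 9 members tested (black) and 5 other tubulins tested (grey). Tubb2a is at 0.68 and Tuba3b at -0.19, and no gene shown passed the adjusted threshold.

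Shares within each family were computed to describe the pool as a whole. Tuba3a and Tuba3b made up 89.1% to 94.8% of the alpha-tubulin FPKM in the controls and 86.2% to 93.2% in the cKO. Tubb4b made up 70.1% to 77.9% of the beta-tubulin FPKM in the controls and 67.8% to 81.0% in the cKO. The alpha sum exceeded the beta sum in every library, by 3.87 to 6.59 times in the controls and 3.18 to 3.93 times in the cKO. Control replicate 1 was at the upper end. The deposited lengths of Tubb4b and Tubb5 exceeded their longest coding transcripts, and those of the Tuba3 genes did not. The beta sum may therefore be understated and the size of this ratio overstated. The 10 genes together took 0.767% to 1.06% of the FPKM of nuclear protein-coding genes, and the groups overlapped in each of these quantities.

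Most marker genes of somatic cells in the testis also had higher means in the cKO, where 52% of all genes tested lay above 0. All 5 macrophage markers (such as Csf1r and Adgre1) had a higher mean in the cKO, and their sum was 7.68 to 14.7 FPKM in the controls and 15.4 to 17.8 FPKM in the cKO, without overlap. All 5 endothelial markers were higher in mean (sum 5.82 to 12.8 against 11.8 to 15.1 FPKM), as were all 5 Leydig markers (15.6 to 33.2 against 25.2 to 41.0 FPKM) and 4 of 5 peritubular markers (44.8 to 75.0 against 74.0 to 104 FPKM). Of 7 Sertoli markers 6 were higher in mean (1486 to 2519 against 1942 to 2284 FPKM), and of 8 spermatocyte markers 2 were (1073 to 1632 against 851 to 1321 FPKM). Of 6 spermatogonia markers 5 were higher in mean (125 to 154 against 141 to 147 FPKM). The lowest of them was at a log2 fold change of -1.46, and the list's mean difference was -0.12 on the log2 scale. Of 4 markers of dividing cells 2 were higher (83.3 to 170 against 90.3 to 119 FPKM). Of 7 spermatid markers 2 were (6.97 to 11.8 against 7.90 to 9.85 FPKM). None of those tested reached an adjusted p below 0.05, and their part in the tubulin values was not tested. In whole testis a change in the number of cells of a type and a change in RNA per cell cannot be told apart.

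The other tubulins gave no call either. Of 10 genes, 5 passed the filter, and 1 was higher and 0 lower at an unadjusted p below 0.05 by limma, against 5.89% and 5% of all genes tested. Tuba4a, an alpha-tubulin whose gene encodes no final tyrosine, read 2.35, 1.97, 3.44 and 2.59 FPKM in the controls and 3.72, 3.05, 3.40 and 4.81 FPKM in the cKO, a log2 fold change of 0.52 (limma adjusted p = 0.382, exact permutation p = 0.0857). Tubb6 had a log2 fold change of 0.36 (4.34 ± 1.28 against 5.50 ± 1.03 FPKM) and Tubg1, the gamma-tubulin of nucleation sites, 0.22 (15.4 ± 2.41 against 17.7 ± 0.721 FPKM). The centriole tubulins Tubd1 and Tube1 had log2 fold changes of -0.26 (9.67 ± 2.09 against 7.93 ± 0.896 FPKM) and -0.22 (4.05 ± 0.331 against 3.47 ± 0.328 FPKM). Without control replicate 1 the log2 fold change was 0.10 for Tubg1 and -0.42 for Tubd1 (limma adjusted p = 0.588 and 0.143). Without control replicate 3 it was -0.16 for Tubd1 and 0.54 for Tubb6. Tuba4a missed an unadjusted p of 0.05 without control replicate 2 or cKO replicate 4. Tubg2 lay at 1.04 ± 0.378 and 0.981 ± 0.216 FPKM. Tuba8, Tubal3, Tubb1 and Tubb4a had means under 0.1 FPKM, with 0 to 6 fragments per library.

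Genes that fold, nucleate, modify and bind tubulin were described from lists. In the folding list (chaperonin, prefoldin and tubulin cofactors, 21 of 22 genes tested), 0 were higher and 1 lower at an unadjusted p below 0.05, where 5.89% and 5% of all genes tested were, with a median log2 fold change of -0.08. The lower one was Cct6b, the testis form of a subunit of the chaperonin that folds tubulin and actin. It read 33.4, 21.9, 27.7 and 19.0 FPKM in the controls and 17.9, 15.1, 12.5 and 11.3 FPKM in the cKO. Every cKO library lay below every control, as in 1 of the 21 genes tested in this list and 2.59% of all genes tested. The log2 fold change was -0.83 (SE 0.20, limma adjusted p = 0.178, exact permutation p = 0.0286), so it did not pass. Cct6b was named for the smallest p of its list, so its exact p is no separate support. Pfdn2, a prefoldin subunit, had the smallest p among the folding genes with a higher mean (log2 fold change 0.18, limma adjusted p = 0.648, and 0.10 without control replicate 1).

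In the modification list (21 of 28 tested), 0 were higher and 4 lower at an unadjusted p below 0.05, again beside 5.89% and 5% of all genes tested, and the median log2 fold change was -0.09. Ttll3, a tubulin glycylase, read 3.33, 3.14, 3.81 and 3.00 FPKM in the controls and 1.87, 2.12, 2.36 and 2.25 FPKM in the cKO. Every cKO library lay below every control. The log2 fold change of Ttll3 was -0.60 (SE 0.13, limma adjusted p = 0.150, exact permutation p = 0.0286). Ttll3 was named for the smallest p of its list, so its exact p is no separate support. The cKO lay fully below the controls in 2 of the 21 genes tested in this list, beside 2.59% of all genes tested. The others were named after their values were seen: the tubulin tail carboxypeptidases Agbl3 (log2 fold change -0.47, limma adjusted p = 0.229, no overlap) and Agbl2 (-0.46, adjusted p = 0.330), and the polyglutamylase Ttll6 (-0.28, adjusted p = 0.445). Hdac6, an X-linked tubulin deacetylase, had the smallest p among those with a higher mean, at 61.2 ± 3.34 and 70.6 ± 4.88 FPKM (log2 fold change 0.20).

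In the nucleation list 8 of 8 genes were tested and 7 had a log2 fold change below 0 (median -0.07). Of all genes tested 52% lay above 0, with a median of 0.01. In this list 0 genes had an unadjusted p below 0.05 in either direction, beside 10.9% of all genes tested. Mzt2, a small protein of the gamma-tubulin ring complex, was at 19.4 ± 6.11 and 13.9 ± 2.27 FPKM (log2 fold change -0.44, and -0.25 without control replicate 1) and Tubgcp3, a core subunit, at 9.14 ± 0.747 and 9.71 ± 0.437 FPKM (log2 fold change 0.09, and 0.06 without control replicate 1). In the list of severing and microtubule-binding genes (22 of 28 tested) 0 passed an unadjusted p of 0.05 in either direction, and the log2 fold changes were split evenly, 11 above and 11 below 0. Katnal2, a katanin-like protein needed for sperm shape, was at 14.4 ± 2.10 and 11.7 ± 1.98 FPKM, and Map4, a general microtubule stabilizer, at 29.7 ± 2.16 and 32.6 ± 2.11 FPKM (log2 fold change 0.14, and 0.08 without control replicate 1).

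**Figure D5:**
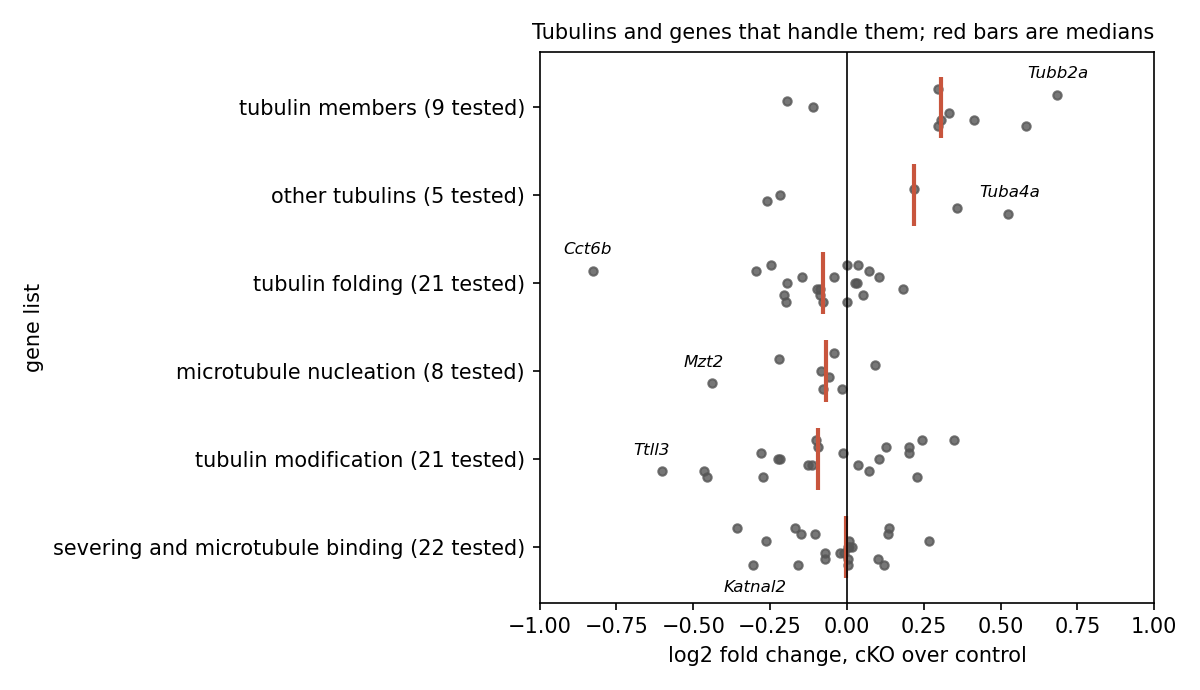
Log2 fold change of cKO over control (x axis) for each gene tested in 6 lists (rows), with the gene of smallest p named and a red bar at the list's median. The members' median is 0.31, the other tubulins' 0.22 and those of the folding, nucleation and modification lists -0.08, -0.07 and -0.09, and no gene passed the adjusted threshold.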

How the data were processed

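Whole-testis RNA of 8 mice was sequenced as paired ends. The authors deposited FPKM per gene with a gene length in bases, made with a company's software; aligner, counting tool and use of strand are not given in the sources used here. The submitters' processing notes name GRCm38 and mm10. FPKM times gene length was a whole number of fragments for 100% of values (tolerance 0.02), which gave fragments per library; at 4 libraries a group the spread between mice sets the precision.

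Here log2(FPKM + 0.1) was tested with limma 3.58.1 in R 4.3.3 (lmFit, eBayes with trend), with no covariate, on the 12141 protein-coding genes whose mean exceeded 1 FPKM in each group, with Benjamini-Hochberg adjustment. The study's thresholds (adjusted p below 0.05, absolute log2 fold change above 1) called 2 genes in this limma fit. With a different test and the same thresholds, the study itself reported more genes, all of them autosomal. The limma fit therefore called fewer genes than the study did, and the reason was not tested. The fit was tested on simulated fragments: at a dispersion of 0.02 it found 37.1% of genes changed by 0.5 on the log2 scale and 98.9% of those changed by 1, and at 0.05 it found 1.01% and 80.5%. Every simulated gene had the same dispersion and no simulated library stood apart. The dispersion of the real data was not estimated, so these shares do not give the power for the members. Single values had exact two-sided permutation tests over 70 assignments, with a smallest p of 0.0286. A fold change on log2(FPKM + 0.1) understates that of low genes. Sequences came from GENCODE vM21 and RefSeq tables (9 of 10 promoters matched); the coding ends of the Tuba1 genes are not reported here. Of the table's genes 99.77% were in vM21 and 98.33% of these had the same position.

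Members and lists were chosen with earlier results of these data known. Named genes were the members, other tubulins, Spdya and, of each pathway list, the genes of smallest p in each direction; others are marked. Replicates of a group differed by at least 3.94 times the counting noise per gene, so each library is 1 sample. Same-numbered libraries deviated together at correlations of 0.0757 to 0.406, below 0.1 in 1 of 4. Different-numbered libraries ran from -0.474 to 0.162. The labels do not say that equal numbers mark littermates. Numbers were therefore not taken as pairs in the main fit, though a pairing is not excluded. Alternatives were other pseudocounts, filters, scalings, array weights, voom on recovered fragments, eBayes with no trend, a replicate block and each library left out. The study's single-cell data were not used here.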

Additional observations from a re-analysis of the deposited data

Results flagged for a closer look

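Of 84 groups of 4 libraries examined, 7 held a library far from the other 3, where chance gives about 1 in 20, or 4.2. Control replicate 4 was low for Tuba3a (556 FPKM against 854 to 894 FPKM), for Tuba3b (578 against 897 to 945 FPKM) and hence for their sum (1134 against 1751 to 1840 FPKM). In the same library the spermatocyte markers summed to 1073 FPKM against 1388 to 1632 FPKM in the other controls, and the Leydig markers to 33.2 FPKM against 15.6 to 16.3 FPKM; their part in the Tuba3 values was not tested. In cKO replicate 1, Tubb2b was at 0.630 FPKM against 1.09 to 1.16 FPKM, Mzt2 at 17.3 FPKM against 12.4 to 13.2 FPKM, and Tubal3 was listed at 0 against 0.0559 to 0.0595 FPKM, a handful of fragments. Control replicate 1 had 0.464% of fragments on mitochondrial genes against 2.97% to 3.39% in the other controls.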

How the results depend on the processing

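Under each alternative run, 0 members reached an adjusted p below 0.05. The 22 named genes kept their direction in all 435 alternative values, and only Cct6b (adjusted p = 0.0236) and Ttll3 (adjusted p = 0.0376) passed, both with array weights (0.161 for control replicate 1, the lowest, and 4.45 for cKO replicate 3, the highest). Members higher at an unadjusted p below 0.05 numbered 4, and 2 to 6 with a library left out (2 without cKO replicate 3 or cKO replicate 4, 6 without cKO replicate 1). There were 6 with array weights, where Tuba1a had the lowest limma adjusted p of the members (0.0555), and 3 above 5 FPKM. Members lower were 0 throughout. The replicate block, which treats equal numbers as pairs, gave 6 members higher, 0 genes called and 0 genes at an adjusted p below 0.05. It gave 2 pathway genes higher and 10 lower at an unadjusted p. Tuba1a had the lowest limma adjusted p of the members in it, 0.121. Genes called (2 in all) and genes at an adjusted p below 0.05 (also 2) were 0 without the filter and above 5 FPKM, 4 with all biotypes, 1 with median centring, 1 as TPM, 57 and 454 with array weights, and 0 to 3 with a library left out. Genes at an unadjusted p below 0.05 (1322) were 744 above 5 FPKM, 2543 with array weights and 687 to 1889 with a library left out. Pathway genes at an adjusted p below 0.05 (0) were 5 with array weights. Pathway genes higher at an unadjusted p (1) were 2 without the filter, 0 above 5 FPKM, 2 with centring, 4 as TPM, 3 with array weights, 3 with voom and 0 to 4 with a library left out, and those lower (5) were 3 above 5 FPKM, 15 with array weights and 4 to 11. The causes were not tested. TPM moved the median of all genes to 0.09 on the log2 scale, and the members' median to 0.40. In the simulation, a change of 0.5 on the log2 scale was found in 37.1% of genes at a dispersion of 0.02 and in 1.01% at 0.05. Neither setting was matched to these data.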
